A study of Homo sapiens with 12 samples.

Results

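The genes described here are 9 genes of the nuclear lamina and of chromatin, LMNB1, LMNB2, LBR, HMGB1, HMGB2, HMGB3, H2AZ1, CBX5 and EZH2. They were selected on known biology and on measured values: loss of their products marks cells that leave the cell cycle or become senescent, and the U251T counts in which LMNB1, HMGB2 and H2AZ1 were lower with carmofur were known when they were chosen. All 9 were found by symbol among the 60107 gene identifiers of the count table, and RNA, not protein, was measured. The cells were U251, an established human glioblastoma line, under 2 labels, U251P and U251T, and what separates these labels is not given in the sources used here. Per the labels, cells were grown in medium with 10% FBS and growth factors, starved of serum for 16 h and then kept for 24 h in full medium with DMSO (vehicle) or with carmofur, an inhibitor of acid ceramidase that is related to the antimetabolite 5-fluorouracil. The study's methods place vehicle or carmofur in the starvation step as well. There were 3 libraries in each of the 4 groups, U251P vehicle, U251P carmofur, U251T vehicle and U251T carmofur. The labels give only a replicate number, while the study's methods call the replicates of all its experiments biological, and p-values measure the spread between these libraries.

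The nuclear lamina is a meshwork of lamins under the inner nuclear membrane. LMNB1 and LMNB2 encode the B-type lamins B1 and B2, and LBR encodes the lamin B receptor, an inner membrane protein that ties heterochromatin to the lamina. HMGB1, HMGB2 and HMGB3 encode high mobility group proteins that bind and bend DNA, H2AZ1 encodes the histone variant H2A.Z, CBX5 encodes heterochromatin protein HP1α, and EZH2 encodes the catalytic subunit of a Polycomb repressive complex, which methylates histone H3. Many of these genes are transcribed most in proliferating cells, and loss of lamin B1 is a widely used marker of senescence.

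Libraries were made with QuantSeq, which reads the 3′ end of each polyadenylated transcript, so that long and short transcripts are counted alike and levels of different genes can be set side by side. Levels are given as counts scaled to a common library total (CPM). The U251P libraries held 3295045 to 6350873 counts and the U251T libraries 383633 to 2817379. The U251T libraries went against their label of a human glioma line. B2M, a component of class I antigen presentation in nearly all nucleated human cells, was at 1544 to 1942 CPM in U251P and at 0.769 to 15.6 CPM in U251T. NES, a marker of glioma cells, was at 376 to 459 CPM in U251P and at most 2.61 CPM in U251T. SOX2 was at 97.7 to 161 CPM in the U251P vehicle libraries and had no counts in the U251T vehicle libraries, whereas VIM reached 13534 CPM there and GFAP, at most 0.304 CPM in U251P, was at 20.9 to 83.0 CPM. The 5 fibroblast markers summed to 18.8 to 23.5 CPM in U251P and to 1744 to 2388 CPM in U251T, most of it COL1A1, with LUM at 0 in both. The 4 epithelial markers summed to 158 to 226 CPM in U251P and 5.32 to 17.7 CPM in U251T, and the leukocyte and endothelial markers to at most 21.2 CPM in any library. The 16 housekeeping genes summed to 11420 to 13136 CPM in U251P and to 2605 to 3157 CPM in U251T. Processed pseudogenes took 0.164% to 0.191% of the counts in U251P and 8.82% to 9.77% in U251T, and mitochondrial genes 19.5% to 26.2% and 0.355% to 0.881%. What these differences come from was not tested. The U251T values below are therefore counts assigned to these gene identifiers in libraries labeled U251T, and each result for U251P stands without them.

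The promoters of LMNB1, H2AZ1 and EZH2 are printed as examples of windows that hold a match to at least 1 of the short motifs named below. The windows are 280 bases, from 250 bases before the start site to 30 after it, taken from RefSeq on GRCh38.p14 for 8 of the 9 genes. An entry for HMGB2 was not found. Capitals mark matches on either strand to CCAAT (the CCAAT box, bound by NF-Y), to TTTGAA (the cell cycle homology region, CHR) and to an E2F site spelled as TTTGGCGC, TTTGCCGC, TTTCGCGC or TTTCCCGC, and matches of different motifs did not overlap in these windows. The sequences are written 5′ to 3′ on the strand of the gene.
LMNB1, chr5:126776886-126777165, plus strand: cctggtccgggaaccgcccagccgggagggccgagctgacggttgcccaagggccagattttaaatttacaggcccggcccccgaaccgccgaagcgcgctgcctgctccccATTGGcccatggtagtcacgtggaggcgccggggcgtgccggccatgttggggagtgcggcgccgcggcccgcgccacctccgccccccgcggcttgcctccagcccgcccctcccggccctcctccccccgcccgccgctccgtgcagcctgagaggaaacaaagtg
H2AZ1, chr4:99950246-99950525, minus strand: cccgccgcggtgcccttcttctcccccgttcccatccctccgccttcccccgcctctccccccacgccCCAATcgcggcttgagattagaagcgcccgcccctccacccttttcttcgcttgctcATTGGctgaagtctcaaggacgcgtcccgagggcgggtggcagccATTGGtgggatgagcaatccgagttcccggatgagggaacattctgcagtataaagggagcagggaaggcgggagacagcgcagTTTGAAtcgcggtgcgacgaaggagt
EZH2, chr7:148884262-148884541, minus strand: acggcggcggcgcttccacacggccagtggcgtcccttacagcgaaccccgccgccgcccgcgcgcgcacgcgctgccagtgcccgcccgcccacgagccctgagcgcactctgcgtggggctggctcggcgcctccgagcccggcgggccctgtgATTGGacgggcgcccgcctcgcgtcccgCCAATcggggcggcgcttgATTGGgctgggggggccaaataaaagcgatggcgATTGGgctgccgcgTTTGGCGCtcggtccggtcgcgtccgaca

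The LMNB1 window held 1 CCAAT box and no match to the CHR or E2F letters. The HMGB3 window, which is not printed, held 3 CCAAT boxes and a CHR. The H2AZ1 window held 3 CCAAT boxes and a CHR just past the start site of that window. This H2AZ1 start lies inside the gene, 113 bases from the start of the principal GENCODE transcript. The EZH2 window held 4 CCAAT boxes and an E2F site at the start. Over the 8 windows, a CCAAT box was found in 5 (LMNB1, HMGB3, H2AZ1, CBX5 and EZH2), against 33.6% of all 35116 promoters of the same length. The CHR letters were found in 3 (LMNB2, HMGB3 and H2AZ1), against 14.5%, and the E2F letters in 1 (EZH2), against 3.14%. LBR and HMGB1 had no match. These matches are descriptions of letters in 1 window per gene.

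**Figure D1:**
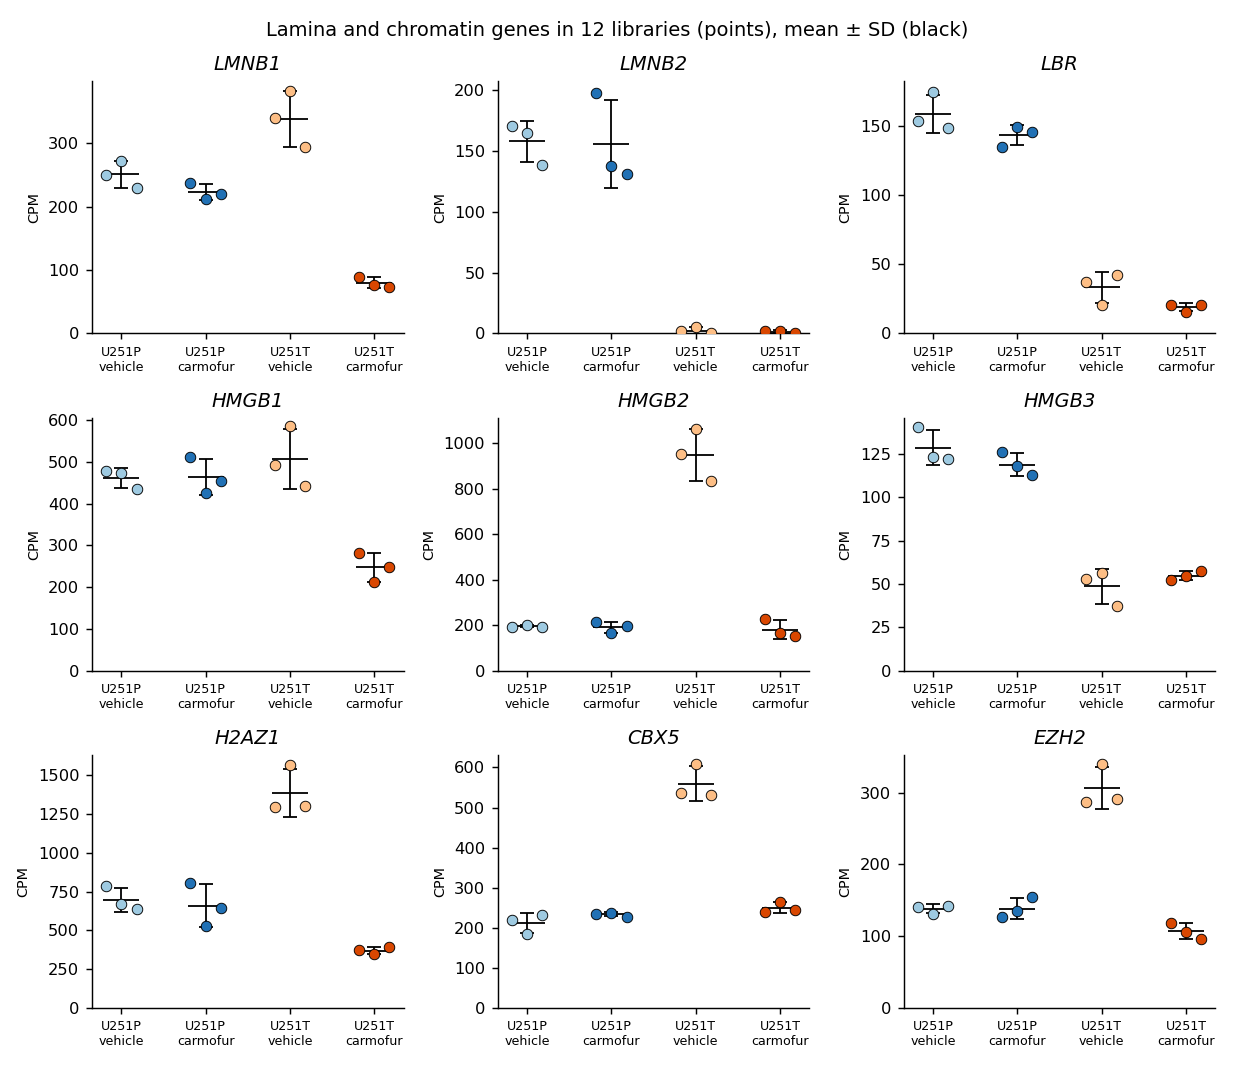
Level of each of the 9 genes in CPM (y axis, from 0) in the 3 libraries of each group (points, in the order of replicates 1 to 3), with mean ± SD in black. In U251P the vehicle and carmofur points overlapped for each of the 9 genes, whereas in U251T they did not overlap for LMNB1, HMGB1, HMGB2, H2AZ1, CBX5 and EZH2.

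Carmofur was first compared with vehicle in U251P, the contrast that played no part in choosing the genes. None of the 9 passed the test. Their log2 fold changes lay between -0.14 and 0.16, all 9 pairs of groups overlapped, and the adjusted p-value by edgeR's quasi-likelihood test was 0.999 for each. Over all genes, 0% of 11426 passed (0 genes, and 402 genes or 3.52% at an unadjusted p under 0.05), so the members' count of 0 equals the background. DESeq2 also called 0 genes, with 235 at an unadjusted p under 0.05. Groups did not overlap for 8.54% of genes and for none of the 9.

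Among the lamina genes in U251P, LMNB1 (chr5:126776623-126837020) was at 250.6, 272 and 229 CPM in the vehicle libraries and at 237, 213 and 220.3 CPM with carmofur. The highest carmofur library lay above the lowest vehicle library, and the log2 fold change was -0.14 (SE 0.0957, 95% interval -0.34 to 0.07). LMNB2 (chr19:2427638-2456996) was at 170.0, 164 and 138 CPM with vehicle and 197, 138 and 131 CPM with carmofur. Both the highest and the lowest LMNB2 value belonged to the carmofur group, and the log2 fold change was 0.01 (95% interval -0.27 to 0.29). LBR (chr1:225401502-225428925) was at 153, 174 and 148 CPM with vehicle and 135, 149 and 145 CPM with carmofur, a log2 fold change of -0.12 (95% interval -0.34 to 0.11). The LBR groups overlapped by a single carmofur library, which stood just above the lowest vehicle library.

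Of the HMGB genes in U251P, HMGB1 (chr13:30456704-30617597), the most abundant of the family in this line, was at 478, 475 and 435 CPM with vehicle and 512, 427 and 454 CPM with carmofur, so that the vehicle values fell inside the carmofur range. HMGB2 (chr4:173331695-173335125) was at 193, 202 and 191 CPM with vehicle and 214, 165 and 195 CPM with carmofur, again with the vehicle libraries inside the carmofur range. HMGB3 (chrX:150980509-150990775) was at 141, 124 and 122 CPM with vehicle and 126, 118 and 113 CPM with carmofur. The log2 fold changes were 0.03 for HMGB1 (95% interval -0.16 to 0.23), -0.01 for HMGB2 (95% interval -0.23 to 0.21) and -0.09 for HMGB3 (95% interval -0.30 to 0.13).

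The chromatin genes did not separate by treatment in U251P either. H2AZ1 (chr4:99948086-99950388), the most abundant of the 9, was at 786, 669 and 639.7 CPM with vehicle and 804, 529.7 and 642 CPM with carmofur, and its spread among carmofur libraries (SD 138) was larger than among vehicle libraries (SD 77.3). CBX5 (chr12:54230940-54280133) was at 218, 183 and 233 CPM with vehicle and 235, 237 and 227 CPM with carmofur, the largest log2 fold change of the 9 (0.16, 95% interval -0.07 to 0.40) and the smallest unadjusted p-value of the edgeR test (0.157). EZH2 (chr7:148807383-148884321) was at 141, 131 and 142 CPM with vehicle and 127, 134 and 154 CPM with carmofur. The log2 fold changes were -0.06 for H2AZ1 (95% interval -0.32 to 0.20) and 0.03 for EZH2 (95% interval -0.21 to 0.26).

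Of the 9 genes in U251P, 5 had a value below 0 and 4 above it, with a median log2 fold change of -0.0081 against -0.00075 over all 11426 genes tested. The lowest bound of any interval was -0.34, for LMNB1 and LBR. On simulated counts for this comparison, the test recovered 88.8% of 197 genes changed by 1 on the log2 scale and 11.1% of 198 genes changed by 0.5. The changed genes were drawn from all but the lowest levels, with a common spread for all genes. These shares do not describe the 9 genes in particular, which had at least 407 counts in each U251P library.

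**Figure D2:**
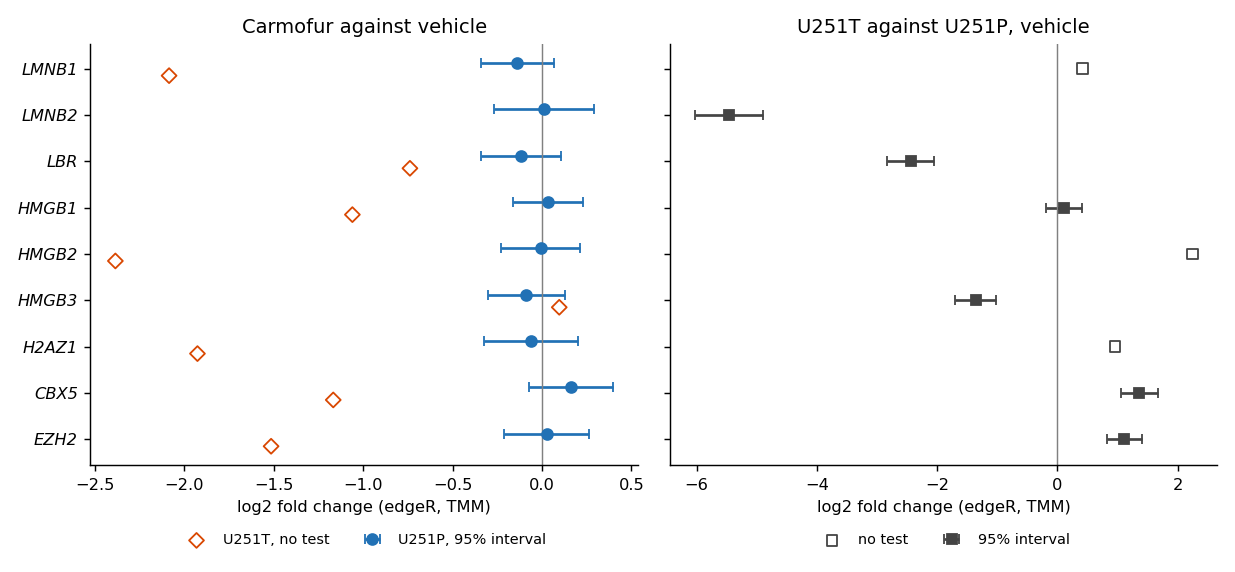
Left, log2 fold change of carmofur against vehicle for each gene (y axis). Filled circles are U251P, with 95% intervals of the edgeR fit, and open diamonds are U251T, a description without a test. The filter on low counts left LMNB2 out of the U251T fit. Right, log2 fold change of U251T against U251P in vehicle, with 95% intervals except for LMNB1, HMGB2 and H2AZ1 (open squares, no test). The 9 intervals in U251P include 0, while the U251T values reach -2.38 for HMGB2.

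The levels of the 9 genes in the 2 lines were compared in the vehicle libraries. This comparison shares the U251T vehicle libraries with the contrast known when the genes were chosen. LMNB1, HMGB2 and H2AZ1 were chosen as lower with carmofur than in these very libraries, so they are described here without a test. The other 6 genes were chosen with the same contrast known, so their p-values between the lines are not independent of the choice. Of the other 6 genes, CBX5 and EZH2 were higher in U251T, LMNB2, LBR and HMGB3 were lower, and HMGB1 did not pass the test. A total of 86.9% of the 12047 genes tested passed (47.6% lower and 39.3% higher), and groups did not overlap for 86.8%, so 5 of 6 is near the background. The line and the marker, mitochondrial and pseudogene differences given above cannot be told apart, nor can fewer cells that express a gene be told from less RNA per cell. The median log2 fold change was 0.41 over the 9 genes, which is the value of LMNB1, and -0.33 over all genes. These values depended on the setting. The median over all genes was -0.51 with DESeq2, -0.43 in a fit of all 12 libraries and -1.54 without a filter. In these settings LMNB1 was at 0.26, 0.25 and 0.05. Among genes with at least 10 counts in every library, the median over all genes was 0.01 and LMNB1 was at -0.22.

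The B-type lamins went opposite ways. LMNB2, at 138 to 170.0 CPM in the U251P vehicle libraries, had 3, 14 and 0 counts in the U251T vehicle libraries (2.31, 4.97 and 0 CPM), 44.2-fold lower (log2 fold change -5.47, edgeR adjusted p = 4.8e-17). Without U251T vehicle replicate 2, which held most of these counts, the value was -6.74. LMNB2 passed the filter on low counts through its U251P libraries. It gave no value among genes with at least 10 counts in every library. In the U251T vehicle library with 0 LMNB2 counts, 166 counts of B-type lamins were seen, which allows a share of LMNB2 of up to 1.81%. LMNB1 was at 339, 382 and 293 CPM in U251T vehicle, each above the U251P vehicle libraries, a 1.33-fold difference (log2 fold change 0.41). This small LMNB1 difference was 0.26 with DESeq2, 0.05 without a filter, 0.25 in 1 fit of all 12 libraries and 0.17 without U251T vehicle replicate 2, and its sign turned among genes with at least 10 counts in every library (-0.22).

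LBR was at 36.9, 20.6 and 42.4 CPM in U251T vehicle, 5.43-fold below U251P (log2 fold change -2.44, edgeR adjusted p = 1.4e-12), and no library of either line came near the other. Together, LMNB2 took 38.6% ± 1.60 (SD, n = 3) of the B-type lamin counts in U251P vehicle and 40.7% ± 4.22 with carmofur, but 0.653% ± 0.643 in U251T vehicle and 1.53% ± 1.33 with carmofur. The last group rests on 28 to 89 lamin counts per library, and these shares carry counting error beside the spread.

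Among the HMGB genes, HMGB2 was higher and HMGB3 lower in U251T vehicle. HMGB2 was at 953, 1063 and 832 CPM in U251T vehicle, 4.74-fold above U251P (log2 fold change 2.24, no test). HMGB3 was at 53.0, 56.1 and 37.1 CPM, 2.57-fold below U251P (log2 fold change -1.36, edgeR adjusted p = 1.8e-08). HMGB1 was at 492, 586 and 443 CPM, overlapping U251P (log2 fold change 0.11, 95% interval -0.18 to 0.40, edgeR adjusted p = 0.477), and its sign turned with DESeq2 (-0.04) and among genes with at least 10 counts in every library (-0.53). Which gene led the family in U251T depended on whether named pseudogene copies, described below, were added. Of the counts of the 3 genes alone, HMGB1 took 58.8% ± 0.604, HMGB2 24.9% ± 0.957 and HMGB3 16.4% ± 0.946 in U251P vehicle (SD, n = 3). In U251T vehicle HMGB1 took 33.7% ± 0.772, HMGB2 63.1% ± 0.686 and HMGB3 3.22% ± 0.363. With copies added to each gene, HMGB1 took 63.7% ± 1.55, HMGB2 33.9% ± 1.22 and HMGB3 2.45% ± 0.358 in U251T vehicle, and 59.7% ± 0.417, 24.3% ± 0.881 and 16.0% ± 0.922 in U251P vehicle, so that HMGB1 led in both lines.

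**Figure D3:**
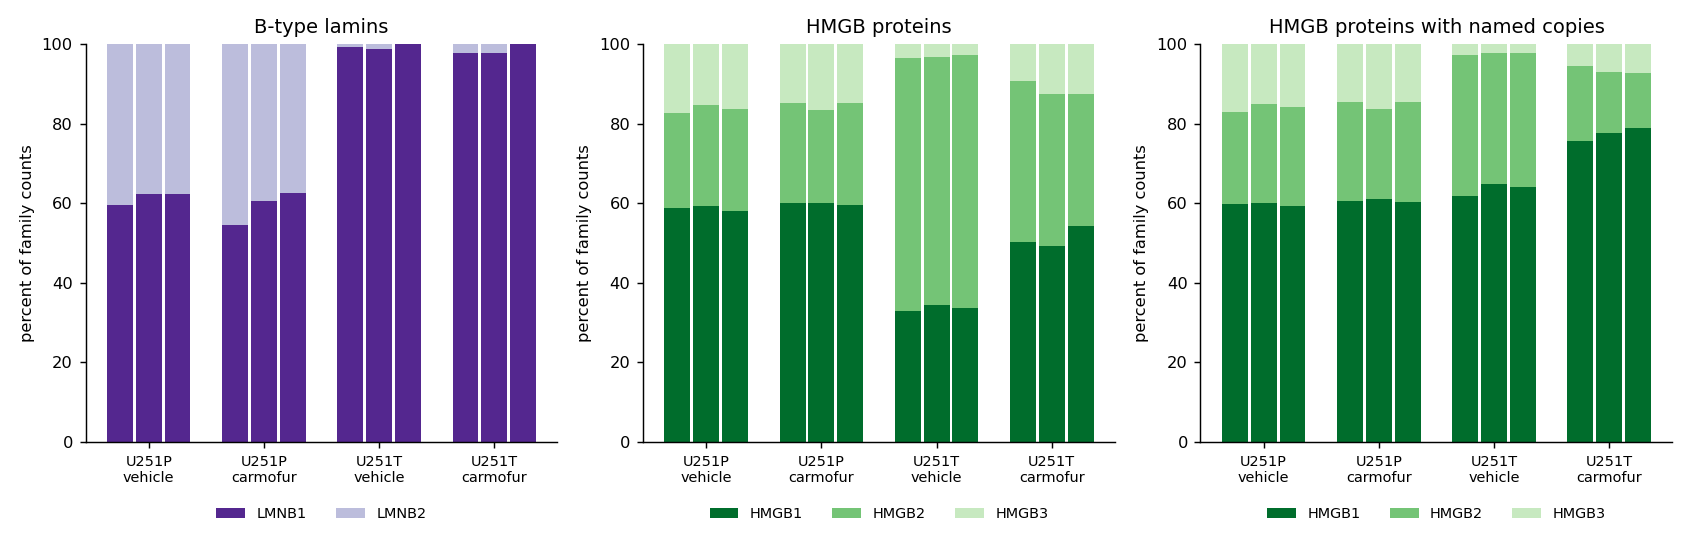
Share of the counts of the B-type lamins (left), of the HMGB genes alone (middle) and of the HMGB genes with their named copies (right), in percent, in each of the 12 libraries (bars, replicates 1 to 3 from left to right within a group). LMNB2 took 37.3% to 45.4% of the lamin counts in U251P and at most 2.35% in U251T, and in U251T vehicle HMGB2 took 63.1% of the HMGB counts without copies and 33.9% with them.

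Of the chromatin genes, CBX5 was at 536, 609 and 532 CPM in U251T vehicle, 2.56-fold above U251P (log2 fold change 1.36, edgeR adjusted p = 1.6e-09). EZH2 was at 287, 339.7 and 291 CPM, 2.16-fold above U251P (log2 fold change 1.11, edgeR adjusted p = 3.6e-08). H2AZ1 was at 1293, 1568 and 1300.2 CPM, 1.94-fold above U251P (log2 fold change 0.96, no test). For these 3 genes, each U251T vehicle library lay above each U251P vehicle library. Among genes with at least 10 counts in every library, the log2 fold change of each fitted member lay below its value here, at 0.73 for CBX5, 0.48 for EZH2, 0.32 for H2AZ1, 1.61 for HMGB2, -1.99 for HMGB3 and -3.08 for LBR.

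In order of level, with each gene counted without copies, H2AZ1 led in all 4 groups and did not overlap the gene below it. With copies added, HMGB1 stood above H2AZ1 in every U251T vehicle library (1684, 2114 and 1602 CPM against 1295, 1573 and 1300.2 CPM). The same held in every U251T carmofur library (912, 843 and 868 CPM against 371, 348 and 394 CPM). The order without copies is given next. In U251P vehicle it was followed by HMGB1, which overlapped neither neighbor, and then by LMNB1, CBX5 and HMGB2, neighbors that overlapped each other. LBR, LMNB2, EZH2 and HMGB3 came last, and each overlapped the next. In U251T vehicle the order was H2AZ1, HMGB2, CBX5, HMGB1, LMNB1, EZH2, HMGB3, LBR and LMNB2, in which CBX5 overlapped HMGB1, LMNB1 overlapped EZH2 and HMGB3 overlapped LBR.

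Carmofur in U251T is the contrast known when the genes were chosen, so its values are a description, with no test. With carmofur, 6 of the 9 genes were lower in U251T with no overlap between groups, 2 overlapped, and the filter on low counts left LMNB2 out of the fit. Of 7204 genes fitted, 17.1% had an adjusted p under 0.05 (8.2% lower and 8.88% higher), and the groups did not overlap for 32.3% (16.5% with carmofur lower). With the replicate number as a block, 2078 genes were called in place of 1231. Whether the 2 lines differ in the response of a member was not tested, since that difference holds the same contrast.

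HMGB2 showed the widest gap in U251T, from 953, 1063 and 832 CPM with vehicle to 227, 164 and 151 CPM with carmofur, 5.22-fold lower (log2 fold change -2.38). LMNB1 went from 339, 382 and 293 CPM to 89.7, 77.0 and 73.0 CPM, 4.24-fold lower (-2.08), and H2AZ1 from 1293, 1568 and 1300.2 CPM to 370.2, 347 and 391 CPM, 3.80-fold lower (-1.93). For each of these 3 genes, no carmofur library came near a vehicle library. EZH2 went from 287, 339.7 and 291 CPM to 119, 106 and 96.4 CPM, 2.86-fold lower (-1.51). CBX5 went from 536, 609 and 532 CPM to 240.3, 265 and 245 CPM (-1.17), and HMGB1 from 492, 586 and 443 CPM to 282, 212 and 248 CPM (-1.06). In these 6 genes every carmofur library lay below every vehicle library.

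LBR went from 36.9, 20.6 and 42.4 CPM to 20.6, 15.8 and 20.9 CPM in U251T (-0.74), values that met at the lowest vehicle library and that rest on 8 to 58 counts per library. HMGB3 was at 53.0, 56.1 and 37.1 CPM with vehicle and 52.6, 54.7 and 57.3 CPM with carmofur (0.10), with the groups overlapping. The LMNB2 counts were 3, 14 and 0 in vehicle libraries and 2, 2 and 0 in carmofur libraries. The median of the 8 fitted genes was -1.34, and that of all genes 0.0098. The carmofur libraries of U251T had 51.2% HMGB1, 37.2% HMGB2 and 11.5% HMGB3 among the HMGB counts without copies, and 77.4%, 15.9% and 6.64% with them. Markers moved with treatment in U251T too. The summed proliferation genes were at 3697 to 3867 CPM with vehicle and 968 to 1206 CPM with carmofur, and the summed fibroblast markers at 1744 to 2051 CPM and 2306 to 2388 CPM, while total counts overlapped (566061 to 2817379 with vehicle and 383633 to 1078340 with carmofur). Their part in the result was not tested. In U251P the summed proliferation genes were at 6397 to 6798 CPM with vehicle and 6178 to 6601 CPM with carmofur.

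Reads of a gene with near-identical copies can be split among them, and 86 genes of the table are named as pseudogene copies of a member. HMGB1 had 48, HMGB3 29, H2AZ1 6, and HMGB2, CBX5 and EZH2 had 1 each, while LMNB1, LMNB2 and LBR had none. In U251P the HMGB1 copies took 4.13% ± 0.741 (SD, n = 3) of the counts of HMGB1 and its copies with vehicle and 3.61% ± 0.888 with carmofur. In U251T they took 71.8% ± 0.876 with vehicle and 71.8% ± 2.86 with carmofur. The copies were at 19.8 CPM in U251P vehicle and at 1293 ± 204 CPM in U251T vehicle. They had the most counts of any member's copies, and the 5 with the most in U251T were HMGB1P6, HMGB1P37, HMGB1P26, HMGB1P36 and HMGB1P14. HMGB1P6, 98.1% identical to HMGB1 over its length, had 1259 counts over the 6 U251T libraries and 51 over the 6 U251P libraries. HMGB1P36, 83.0% identical, had 1070 and 0.

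To show how close the copies are to the gene, coding bases 121 to 180 of HMGB1, which cross an intron, are printed with the matching bases of the 4 of these 5 copies that aligned without a gap (GENCODE 29 on GRCh38). Capitals mark bases that differ from HMGB1. QuantSeq reads lie near the 3′ end of a transcript, so the counts need not come from this stretch.
HMGB1, chr13:30463323-30463560, minus strand: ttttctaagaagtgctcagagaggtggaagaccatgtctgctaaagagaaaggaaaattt
HMGB1P6, chr15:71165238-71165297, minus strand: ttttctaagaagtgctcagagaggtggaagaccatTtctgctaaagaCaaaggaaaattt
HMGB1P37, chr9:121520285-121520344, minus strand: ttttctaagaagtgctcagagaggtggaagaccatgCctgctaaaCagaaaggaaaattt
HMGB1P26, chr1:229705683-229705742, minus strand: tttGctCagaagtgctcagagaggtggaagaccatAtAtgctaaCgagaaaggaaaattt
HMGB1P14, chr14:58284892-58284951, plus strand: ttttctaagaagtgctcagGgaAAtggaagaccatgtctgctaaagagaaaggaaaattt

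Over these 60 bases HMGB1P6 and HMGB1P37 each had 2 differences, HMGB1P14 3 and HMGB1P26 5. In U251T, 13 HMGB1 copies had over 100 counts, with identities of 65.8% to 98.1% (median 87.5%), and the other 35 had identities of 69.7% to 97.3% (median 84.5%). In U251P no HMGB1 copy passed 100 counts. With the copies added to the gene, HMGB1 was at 482 ± 21.6 CPM in U251P vehicle, 482 ± 40.6 CPM in U251P carmofur, 1800 ± 275 CPM in U251T vehicle and 874 ± 34.7 CPM in U251T carmofur (mean ± SD, n = 3). The line comparison of HMGB1 then passed the test, at a log2 fold change of 1.87 (edgeR adjusted p = 4.35e-12). That test shares the U251T vehicle libraries with the contrast known when the genes were chosen. The carmofur values were 0.02 in U251P and -1.06 in U251T. CBX5P1, the copy of CBX5, took 8.97% ± 3.83 of the joint counts in U251T vehicle and HMGB3 copies 29.6% ± 4.17. With copies added, the line comparison gave 1.50 for CBX5 and -0.89 for HMGB3, the same direction as without.

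**Figure D4:**
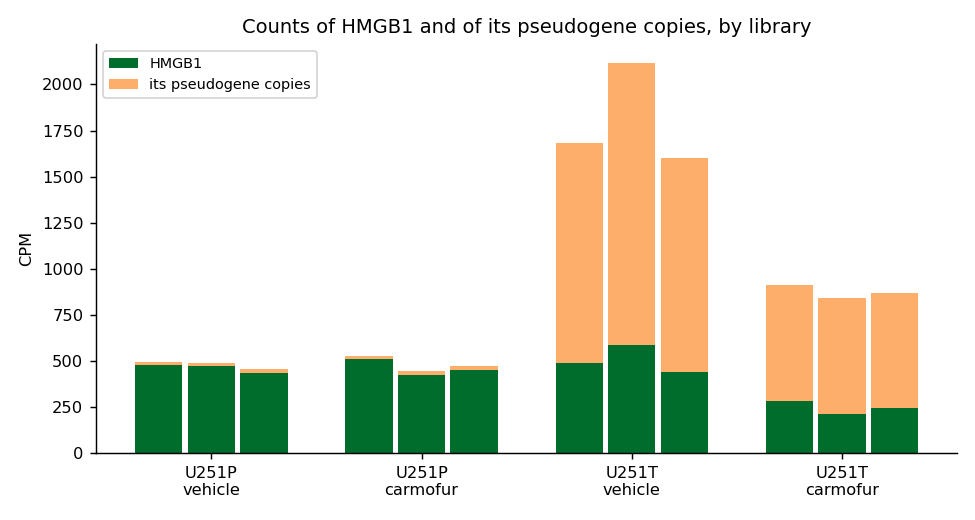
Counts of HMGB1 (green) and of its 48 named pseudogene copies together (orange), stacked, in CPM (y axis, from 0), in each of the 12 libraries. The copies are a thin layer in U251P and the larger part of each bar in U251T, at 71.8% of the joint counts in both treatment groups.

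The wider pathway was followed with lists of related genes. In U251P, none of the 15 lamina and envelope partners, 28 chromatin relatives, 13 tested genes of cycle exit and secretion and 20 proliferation genes passed the edgeR test with carmofur, nor did any have an unadjusted p under 0.05. Their median log2 fold changes were 0.02, -0.04, -0.03 and -0.0100, near the median of all genes. Between the lines in vehicle, 9 lamina partners were lower and 6 higher in U251T, 11 chromatin relatives were lower and 11 higher with 6 not passing, 7 genes of cycle exit and secretion were lower and 6 higher, and 13 proliferation genes were lower, 4 higher and 3 not passing, against the background of 86.9%. Most of the largest differences of these lists rested on genes with few or no counts in U251T. Among the lamina partners, SUN1, which encodes a protein that links the lamina to the cytoskeleton, had 526, 393 and 372 counts in U251P vehicle and 1, 2 and 1 in U251T vehicle, and ICMT, which encodes a methyltransferase that modifies lamins, 434, 268 and 376 and 3, 2 and 0. They were followed by SYNE1, which encodes nesprin-1 of the outer membrane and was higher (log2 fold change 2.22), and EMD, which encodes emerin of the inner membrane and was lower (-2.18). HMGN1 and HMGN2, nucleosome binding proteins, were lower (-3.31 and -3.28), and SUZ12, the partner of EZH2 in the Polycomb complex, was higher (2.43), as was HMGA2 (2.27).

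In the cycle exit list, CDKN2C, which encodes the kinase inhibitor p18, had no counts in U251P vehicle and 45, 81 and 14 in U251T vehicle, at least 136-fold higher against a floor of 3 counts over the group. GDF15, a secreted stress cytokine, had 252, 410 and 727 counts in U251P vehicle and 1, 0 and 0 in U251T vehicle. IGFBP7, a secreted binding protein, was at 322 to 435 CPM in U251P vehicle and at most 2.48 CPM in U251T vehicle, and GLB1, the lysosomal β-galactosidase, had 110, 65 and 116 counts against 1, 1 and 0. Of the proliferation genes, CENPA, a centromeric histone, had no counts in U251T vehicle and 110, 103 and 103 in U251P vehicle, at least 36.2-fold lower against the same floor. BIRC5, which encodes survivin, was at 283 to 334 CPM in U251P vehicle and at most 2.13 CPM in U251T vehicle. TYMS, which encodes thymidylate synthase, was lower (-6.05), as was MKI67, the proliferation marker Ki-67 (-4.99).

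For carmofur in U251T the lists are described in the same way as the 9 genes, without a test. All 12 fitted proliferation genes had values below 0, with a median log2 fold change of -1.94, beside -1.34 for the 8 fitted members and 0.0098 for all genes. Of 12 fitted lamina partners, 9 lay below 0 and 3 above it (median -0.50), and of 26 chromatin relatives, 22 below and 4 above (median -0.61). Of 9 fitted genes of cycle exit and secretion, 3 lay below 0 and 6 above it (median 0.55). Of those above 0, IL1A and MMP1 did not pass the filter on low counts in the fit of the vehicle libraries. They passed it here only with the carmofur libraries included, so the median of this list depends on the filter. The following were named after their values were seen. TMPO, which encodes a lamina-associated polypeptide, was at -1.70, and LMNA, which encodes the A-type lamins, at -1.13, while SYNE1 was at 0.74. PHF19, a Polycomb partner, was at -1.70, while EZH1, of the same list, was at 0.83. CDKN1A, which encodes the cyclin-dependent kinase inhibitor p21, was at 2.16. MMP1, a secreted collagenase, was at 2.74, with the limit of the filter given above. The kinase inhibitors CDKN2C and CDKN1B were at -2.73 and -0.93.

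**Figure D5:**
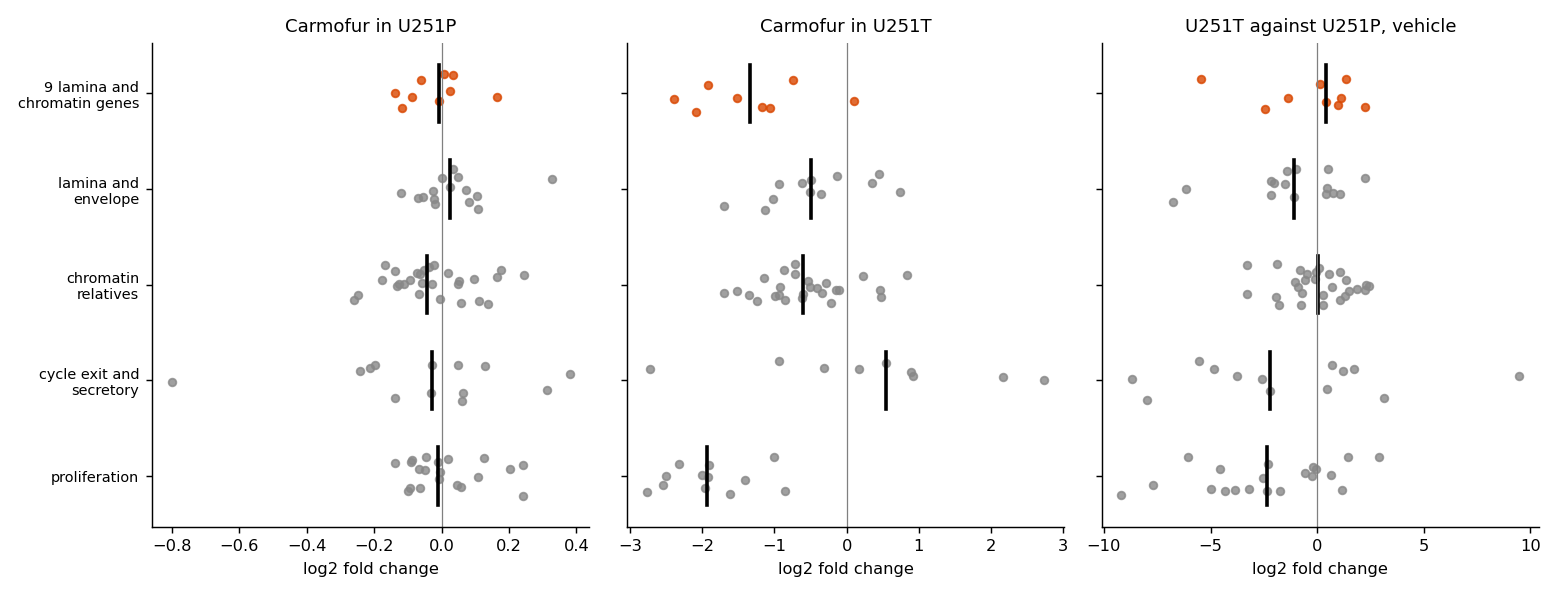
Log2 fold change of each fitted gene (points) of the 9 lamina and chromatin genes (orange) and of 4 lists of related genes (gray), with the median of each as a black bar, for carmofur in U251P, carmofur in U251T and U251T against U251P in vehicle. The x axes differ in range. In U251P the medians lie within 0.05 of 0, and in U251T the medians of the 9 genes and of the proliferation genes lie at -1.34 and -1.94.

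The genes whose level followed LMNB1 most closely were named by Pearson's correlation of log2(CPM + 1). Over the 12 libraries and 13069 genes, these were HMMR (r = 0.985), TMPO (0.982), SMC4 (0.981), PTGES3 (0.974) and GINS1 (0.973). HMMR and SMC4 are genes of the mitotic spindle and of condensin. Of the other members, HMGB1 was closest (0.966, rank 10), followed by H2AZ1 (0.899, rank 66) and EZH2 (0.758, rank 227). HMGB2 was at 0.616 (rank 542), LBR at 0.490, CBX5 at 0.439, LMNB2 at 0.394 and HMGB3 at 0.249. These libraries include the U251T contrast known when the genes were chosen. The 12 libraries fall into 4 groups, and the points share line, treatment and depth, so r describes mainly the differences between groups. Over the 6 U251P libraries and 11425 genes, the closest were SCOC (0.994), CDCA7L (0.990), CPNE3 (0.990), ZNF654 (0.989) and CNIH4 (0.989). None of these is among the 5 over 12 libraries. There CBX5 was at -0.872 and EZH2 at -0.394, and the other members lay between 0.563 (H2AZ1) and 0.670 (LBR). Each of these values of r rests on 6 libraries, the closest genes were picked as the highest of 11425, and none was tested.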

How the data were processed

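RNA of U251P and U251T cells was measured in 12 libraries, and groups were taken from the sample labels. The authors made the libraries with QuantSeq FWD, and the deposited table holds their whole-number counts per Ensembl gene without normalization. The submitters' processing notes name hg38, and the study's methods name Lexogen's BlueBee pipeline for trimming and mapping, while the counting tool, annotation release, and use of strand or molecular identifiers are not given in the sources used here. Symbols and positions came from GENCODE release 29 (GRCh38), which matched 56531 of 60107 identifiers holding 99.9% of the counts.

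The 9 genes, the lists of related genes and the tests were chosen with earlier results of these data known. Counts were fitted with edgeR 4.0.16 in R 4.3.3 (TMM, filterByExpr, quasi-likelihood test, Benjamini-Hochberg adjustment over all genes tested, called under 0.05) for carmofur in U251P, for the lines in vehicle (LMNB1, HMGB2 and H2AZ1 as a description) and, for description, for carmofur in U251T. All 9 genes were named, as were pseudogenes with a member's symbol followed by P and a number, and the 5 genes most like LMNB1. From each list, up to 4 genes were named, with the largest change among those called in U251P or between the lines. For carmofur in U251T, list genes were named outside this rule, after their values were seen. Alternatives were DESeq2 1.42.0, upper-quartile scaling, library totals alone, no filter, a minimum of 10 counts per library, the replicate number as a block, all 12 libraries in 1 fit, a threshold of 0.1, copies added to the gene, and each library left out. Levels are CPM of library totals. Replicates differed by 1.72 to 11.5 in chi-square per degree of freedom, so none was the same library sequenced again. This value cannot tell separate preparations of the same RNA from separate cultures. Deviations from group means correlated between same-numbered libraries at 0.151, 0.464 and 0.224 in U251T and at 0.276, 0.0056 and 0.341 in U251P. Between the lines in vehicle they correlated at -0.0285, -0.0064 and 0.0465. The main fits did not pair libraries by number in either line, and the replicate block was an alternative only. The fits were tested on simulated data. Intervals and floors of shares cover counting error only, as molecular identifiers are not mentioned. Figures were drawn in Python 3.11.15 with matplotlib 3.10.9.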

Additional observations from a re-analysis of the deposited data

How the results depend on the processing

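In U251P, 0 of the 9 genes were called under any alternative run. Genes called there were 19 without a filter on low counts, 1 with the replicate block and 0 to 1 with each library left out (1 without U251P carmofur replicate 3), against 0. Near 0, the sign of LMNB2 turned with library totals alone (-0.0152) and with the replicate block (-0.0058), and that of EZH2 with library totals alone (-0.0015). With each library left out, the log2 fold changes ranged from -0.17 to 0.11 for LMNB2, -0.0185 to 0.074 for HMGB1, -0.0722 to 0.0743 for HMGB2, -0.20 to 0.0601 for H2AZ1 and -0.0602 to 0.11 for EZH2.

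Between the lines, LMNB1 turned to -0.22 among genes with at least 10 counts in every library, where 3737 genes were called against 10474, as fewer were tested (4823). HMGB1 turned with DESeq2 (-0.0407), without a filter (-0.26), with at least 10 counts in every library (-0.53, where it passed the edgeR test and LMNB2 gave no value) and in 1 fit of all 12 libraries (-0.0513), and it ranged from -0.16 to 0.17 with each library left out. The other causes were not tested. In U251T, 2078 genes were called with the replicate block against 1231, and 837 to 1195 with each library left out. The block changed no call of a member between the lines or in U251P. In U251P, carmofur replicate 2 correlated better with vehicle replicate 1 (0.0929) than with its own number (0.0056). In U251T, LMNB2 rests on 0 to 14 counts per library and LBR on 8 to 58, which limits the precision of both.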
